A study of Rattus norvegicus with 19 samples.

Results

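The subunits of oxidative phosphorylation were followed across the 4 genotypes of a rat model of the 16p11.2 copy number syndromes. A gene was a member when its symbol, ignoring case, began with Nduf followed by a, b, c, s or v and a number, was Sdha, Sdhb, Sdhc or Sdhd, or began with Uqcr, Cox4 to Cox8, Atp5, Mt-nd, Mt-co, Mt-atp or Mt-cyb, and when its mean over the 19 libraries was at least 1 CPM (counts-per-million). Of the 32623 genes in the files, 13625 reached that mean, 102 had a matching symbol, and 90 met both conditions. These 90 members were 77 nuclear genes (36 of complex I, 4 of complex II, 8 of complex III, 14 of complex IV and 15 of complex V, assigned by the start of the symbol, so that Ndufa4 counts under complex I) and 13 genes of the mitochondrial genome. The rule used no difference between genotypes.

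Oxidative phosphorylation takes place in the inner mitochondrial membrane, where complexes I and II pass electrons from NADH and succinate to ubiquinone, complex III passes them on to cytochrome c, and complex IV hands them to oxygen. The protons pumped by complexes I, III and IV drive complex V, the ATP synthase. Most subunits are encoded in the nucleus and imported, while a few core subunits of every complex except complex II are encoded in the mitochondrial DNA and transcribed there. In the hippocampus the pathway supplies most of the ATP that neurons spend on ion pumping and synaptic transmission.

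RNA was sequenced from the hippocampus of 19 male Sprague Dawley rats, littermates from crosses of 2 lines made with CRISPR/Cas9, in which the chromosome 1 interval between *Sult1a1* and *Spn* was deleted or duplicated. The groups were wild-type (wt, 6 libraries, 2 copies of the interval), Del/+ (4 libraries, 1 copy), Dup/+ (5 libraries, 3 copies) and Del/Dup (4 libraries, 1 deleted and 1 duplicated chromosome, hence 2 copies). The labels give no treatment and no age, and the study calls the hippocampi adult. Each arrangement came from 1 engineered line, so the genotype and the line cannot be told apart.

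The total over genes was 16191192 to 38760645 reads per library, and all 90 members were among the 15440 genes that passed the expression filter. To check the labels, 23 tested genes of the interval were set against their wt mean. The median ratio lay between 0.483 and 0.548 in the Del/+ libraries, between 1.39 and 1.48 in the Dup/+ libraries and between 0.941 and 1.01 in all others. For wt replicate 5 a second field of the label gives Dup/+, and the library was counted as wt. Multi-mapped reads, those that fit several places in the genome, took 40.1% to 50.5% of the counted lines in every wt and Dup/+ library, 57.8% to 70.7% in Del/Dup, and 73.1%, 76.3%, 63.9% and 41.6% in Del/+ replicates 1 to 4. Del/+ replicate 4 therefore stood apart from its group, and for Del/Dup the genotype and the high multi-mapped share cannot be told apart. All 12 neuron markers and 7 of the 10 hippocampus markers reached 1 CPM, while Fibcd1, Spink8 and Lct were at or near 0.

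The summed reads of the members were compared first. Of the gene counts, wt libraries held 0.759% ± 0.0343 (SD, n = 6) on the 77 nuclear members and 3.13% ± 0.201 on the 13 mitochondrial members. Del/+ libraries held 0.807% ± 0.0169 (SD, n = 4) and 2.89% ± 0.0557. Dup/+ libraries held 0.784% ± 0.0400 (SD, n = 5) and 3.07% ± 0.270, and Del/Dup libraries 0.772% ± 0.0455 (SD, n = 4) and 3.09% ± 0.170. Both shares overlapped between wt and every carrier group: the nuclear share spanned 0.722% to 0.820% in wt against 0.792% to 0.830% in Del/+, and the mitochondrial share 2.88% to 3.39% against 2.82% to 2.95%. The ratio of mitochondrial to nuclear reads ran from 3.53 to 3.68 in Del/+ libraries, inside or below the wt range of 3.61 to 4.60, from 3.26 to 4.49 in Dup/+ libraries and from 3.70 to 4.42 in Del/Dup libraries. No p was computed for these sums. In whole tissue, fewer cells of a type and less RNA per cell cannot be told apart.

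**Figure D1:**
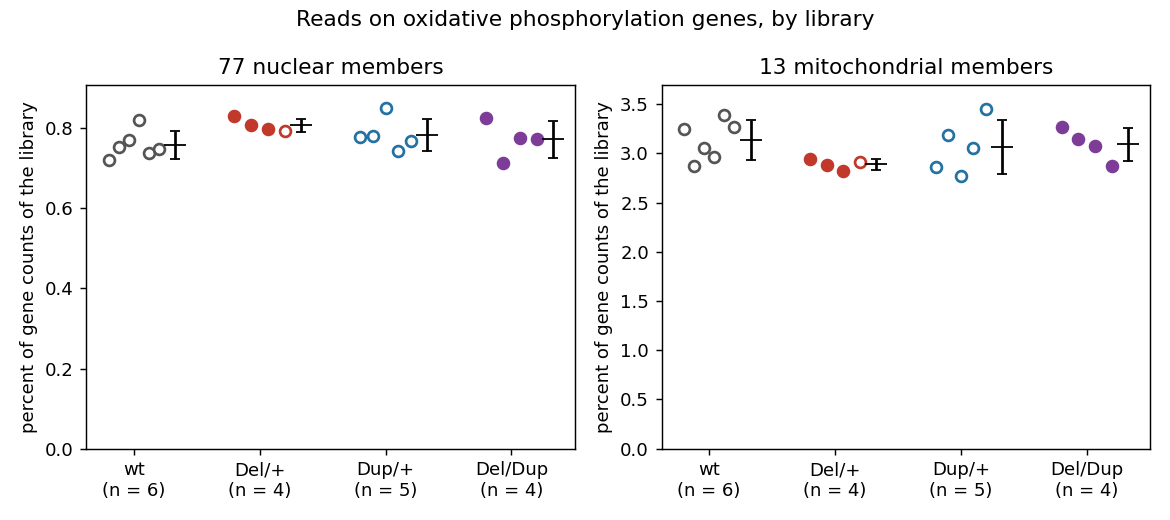
Percent of the gene counts of each library that fell on the 77 nuclear members (left) and the 13 mitochondrial members (right), by genotype; each circle is 1 library, filled where the multi-mapped share was above 55%, and the bar is the mean with its SD. The Del/+ libraries sit at 0.792% to 0.830% for nuclear members and at 2.82% to 2.95% for mitochondrial members, and both ranges overlap those of wt.

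Gene by gene, no member was called by the edgeR quasi-likelihood test at a Benjamini-Hochberg adjusted p under 0.05 over all genes tested. This held for each of the 4 comparisons and for the test of any difference among the 4 groups. The same test called 0.771% of all genes in Del/+ against wt, 0.272% in Dup/+ against wt, 0.0907% in Del/Dup against wt, 0.784% in Del/+ against Dup/+ and 0.823% among the 4 groups. DESeq2 called 4 members in Del/+ against wt, 4.76% of the 84 that it gave an adjusted p against 6.93% of all such genes, and 0 members elsewhere, where it called 0.518% of all genes in Dup/+ and 1.19% in Del/Dup against wt, 1.73% in Del/+ against Dup/+ and 4.57% among the 4 groups. At an unadjusted p under 0.05, edgeR found 22 members in Del/+, 3 in Dup/+ and 5 in Del/Dup against wt, 3 in Del/+ against Dup/+, and 7 among the 4 groups. Of all genes, 18.4%, 8.94%, 16.2%, 13.5% and 18.9% passed in these 5 tests. The 95% intervals of the fold change came from the fit without a term for multi-mapped share, and do not cover shifts with that share. The interval lay within 1.5-fold in either direction for 89 of the 90 members in Del/+, 90 in Dup/+ and 86 in Del/Dup against wt. It lay within 1.2-fold for 66, 71 and 66 members.

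In Del/+ against wt, most nuclear members stood slightly higher. A log2 fold change above 0 was found for 66 of 77 nuclear members, against 50.2% of all genes, and their median was 0.067, a fold of 1.05, against 0.00048 over all genes. At an unadjusted p under 0.05, 18 nuclear members (23.4%) were higher and 1, Cox6b2 at the floor of the rule, was lower, where 8.77% of all genes were higher and 9.68% lower. Leaving out 1 library at a time, the 18 became 9 (without Del/+ replicate 1) to 28 (without Del/+ replicate 4), and with a term for high multi-mapped share in the fit they became 0 and the median -0.013. The 18 came from every complex: 10 of complex I, 1 of complex II, 2 of complex III, 2 of complex IV and 3 of complex V. The median was 0.076 for the nuclear members of complex I, 0.065 for complex II, 0.029 for complex III, 0.058 for complex IV and 0.067 for complex V.

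**Figure D2:**
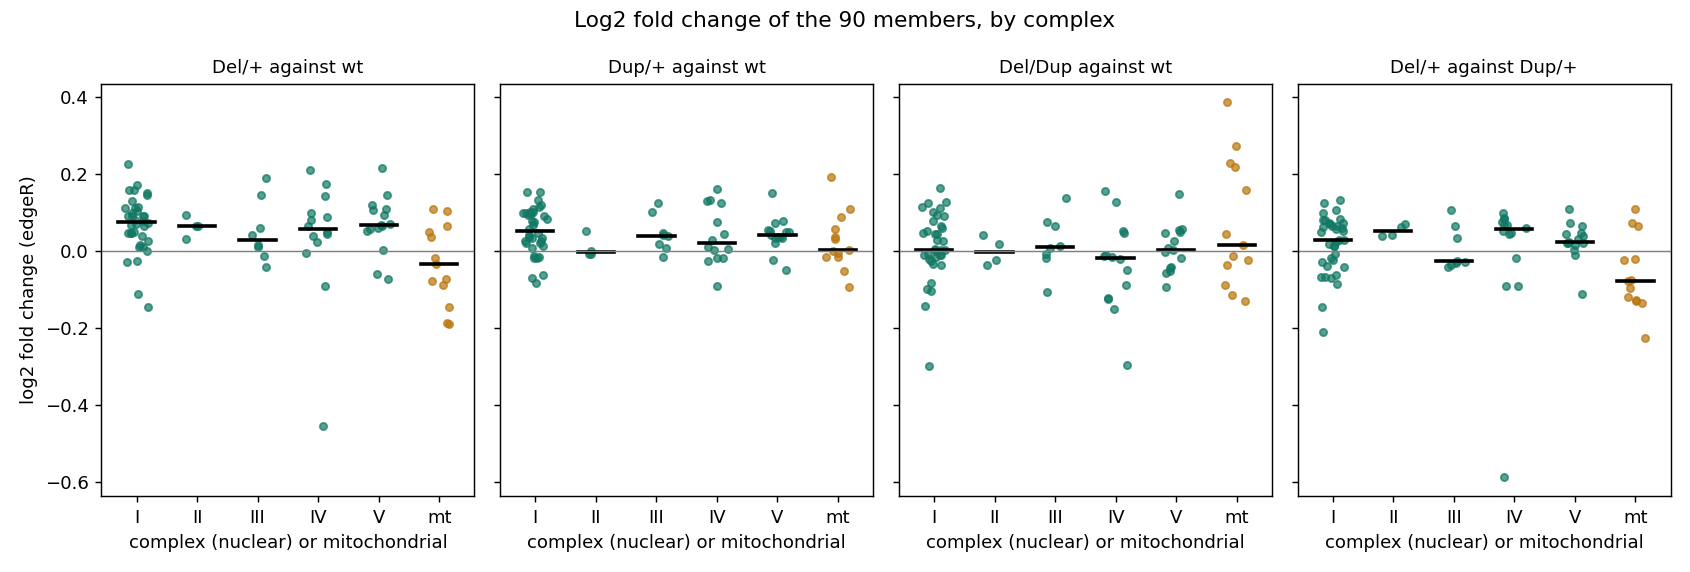
Log2 fold change of each of the 90 members in the 4 comparisons, by complex for nuclear genes (green) and for the 13 mitochondrial genes (mt, orange); the black line is the median of each column and 0 is no difference. In Del/+ against wt 66 of the 77 nuclear members lie above 0, in Del/Dup against wt 40 of 77, and the lowest point in the panels of Del/+ against wt (-0.45) and Del/+ against Dup/+ (-0.59) is Cox6b2.

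The 3 nuclear members with the smallest p in Del/+ against wt were Ndufv2, Ndufs1 and Uqcrc2. Ndufs1, the largest iron-sulfur subunit of complex I, spanned 196 to 218 CPM in the 6 wt libraries with a median of 213. It stood at 246, 241, 226 and 219 CPM in Del/+ replicates 1 to 4. Every Del/+ library lay above every wt library, Del/+ replicate 4 by the least. The log2 fold change was 0.15 (SE 0.044, edgeR adjusted p = 0.102), and Ndufs1 stood at 201 to 224 CPM in Dup/+ and 201 to 222 CPM in Del/Dup.

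Uqcrc2, a core subunit of complex III, spanned 173 to 191 CPM in wt with a median of 183, and stood at 209, 203, 193 and 198 CPM in Del/+. The wt and Del/+ groups did not overlap, and the log2 fold change was 0.15 (SE 0.045, edgeR adjusted p = 0.104). Uqcrc2 spanned 176 to 196 CPM in Dup/+ and 178 to 204 CPM in Del/Dup, so both also reached above the wt range. Ndufv2, which with Ndufv1 forms the NADH-oxidising end of complex I, spanned 91.3 to 100.4 CPM in wt with a median of 93.3. It stood at 116, 108, 106 and 98.2 CPM in Del/+, so that replicate 4 lay inside the wt range. Ndufv2 spanned 92.6 to 106 CPM in Dup/+ and 95.9 to 111 CPM in Del/Dup. The medians there, 104 and 100 CPM, also lay above that of wt. In Del/+ against wt, the log2 fold change of Ndufv2 was 0.17 (SE 0.051), with the lowest adjusted p of the nuclear members (edgeR adjusted p = 0.0946).

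Of the other members with a small p, Ndufb4 and Ndufb7, accessory subunits of the membrane arm of complex I, had log2 fold changes of 0.23 (edgeR adjusted p = 0.135) and 0.15 (edgeR adjusted p = 0.136). Sdha, the flavoprotein of complex II and its member with the most reads, spanned 300.5 to 320 CPM in wt and 328 to 338 CPM in Del/+. That difference was small, 0.095 on the log2 scale (edgeR adjusted p = 0.174), but the groups did not overlap. Ndufb5 of complex I and Cox6c of complex IV, the latter singled out after its values were seen, were the remaining nuclear members whose Del/+ libraries all lay above wt. These 5 of 77 nuclear members (6.49%) compare with 2.23% of all genes. In the other comparisons the groups overlapped for every member, where 0.674% of all genes lay wholly above and 0.499% wholly below in Dup/+ against wt, 1.33% and 1.22% in Del/Dup against wt, and 2.33% and 2.97% in Del/+ against Dup/+. Leaving out Del/Dup replicate 2, Cox6c passed the threshold in Del/+ against wt (0.22 on the log2 scale, edgeR adjusted p = 0.0445). It was the only member to do so in any comparison when 1 library at a time was left out. The library left out belongs to neither group, but all groups share the estimate of the spread.

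Within Del/+, the library of low multi-mapped share had the lowest nuclear level. Per library, the median log2 difference of the nuclear members from the wt mean was 0.15, 0.078 and 0.060 in Del/+ replicates 1 to 3, of high share, and -0.011 in replicate 4, of low share. In these libraries 74, 66, 62 and 35 of the 77 nuclear members lay above their wt mean. The 4 Del/Dup libraries, also of high share, had medians of 0.077, -0.11, 0.020 and 0.013, with no common direction. With a term for the high multi-mapped share in the fit, which leaves replicate 4 to carry the comparison within the low-share libraries, the median was -0.013 and 0 nuclear members were higher at an unadjusted p under 0.05, against 5.85% of all genes (6.34% where the low-share libraries were fitted alone). The wt libraries also differed among themselves. Their medians ran from -0.061 to 0.063 at shares of 40.1% to 47.6%, and 12 to 69 of the 77 nuclear members lay above the wt mean.

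**Figure D3:**
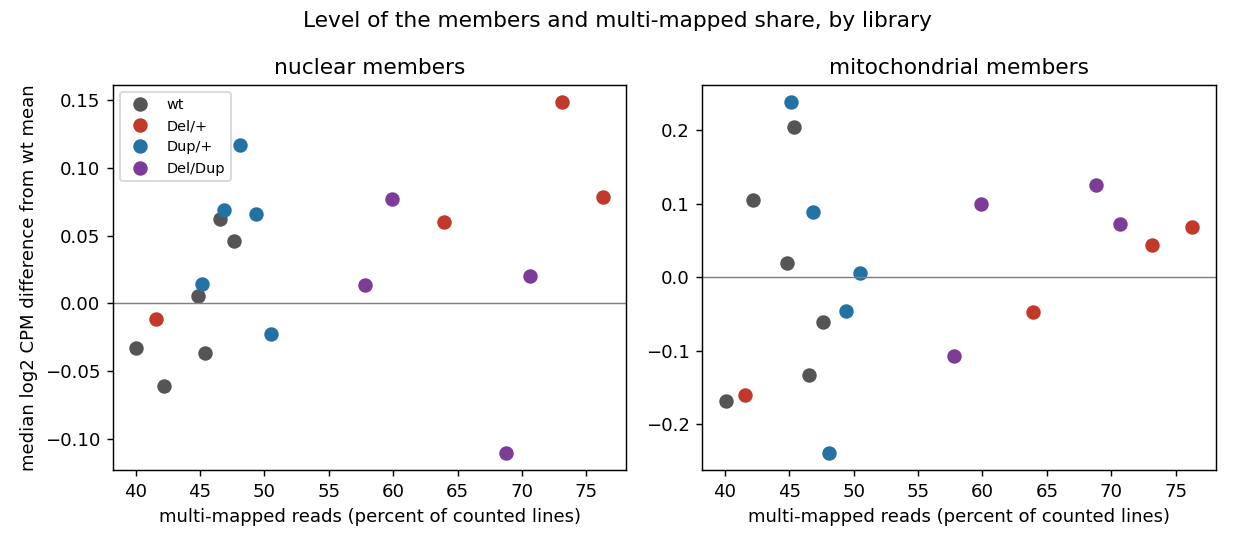
Median over the nuclear (left) and mitochondrial (right) members of their log2 CPM difference from wt in each library, plotted against the percent of counted lines that were multi-mapped; each point is 1 library, coloured by genotype. The low-share Del/+ library lies at -0.011 and -0.16, below the other 3 Del/+ libraries in both panels.

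Summed markers of other cells also differed between libraries. The 12 oligodendrocyte markers, all above 1 CPM, summed to 5525 to 7100 CPM in wt and 6463 to 9585 CPM in Del/+. The 12 choroid plexus markers, 11 of which were above 1 CPM while Otx2 was at 0, summed to between 104 and 164 CPM in wt libraries, and reached 1730 in Del/+ and 632 in Dup/+ libraries. They stood at 179 to 1639 CPM in Del/Dup, without overlap with wt. With the log2 CPM of Ttr, the choroid plexus transthyretin, as a covariate, the nuclear median in Del/+ was 0.070, and 13 nuclear members in place of 18 were higher at an unadjusted p under 0.05. The 8 microglia markers summed to 201 to 249 CPM in Del/+ against 249 to 265 CPM in wt, and the 12 neuron markers to 12630 to 13880 CPM against 13110 to 14560 CPM. The part of oligodendrocyte, microglia and neuron RNA in the members' values was not tested.

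Promoter sequences were read for the 3 nuclear members that DESeq2 called in Del/+ against wt, Ndufs1 (adjusted p = 0.0274), Uqcrc2 (adjusted p = 0.0279) and Ndufv2 (adjusted p = 0.0269), because nuclear subunit genes are known to share binding motifs of the factors NRF-1, NRF-2 (an ETS factor) and YY1 near their starts. Ndufa6, a complex I subunit, is shown beside them as 1 of 2 members, with Atp5me, whose windows held all 3 motifs. Each is the 250 bases before the gene start in RefSeq (GRCr8), on the gene's strand, 5′ to 3′. Capitals mark the ETS core CCGGAAG or its reverse complement CTTCCGG and, in Ndufa6, also the NRF-1 motif GCATGCGC. The location is chr9:72073606-72073855 (minus strand) for Ndufs1, chr1:184598990-184599239 (plus strand) for Uqcrc2, chr9:113157521-113157770 (minus strand) for Ndufv2 and chr7:115750318-115750567 (minus strand) for Ndufa6.
Ndufs1: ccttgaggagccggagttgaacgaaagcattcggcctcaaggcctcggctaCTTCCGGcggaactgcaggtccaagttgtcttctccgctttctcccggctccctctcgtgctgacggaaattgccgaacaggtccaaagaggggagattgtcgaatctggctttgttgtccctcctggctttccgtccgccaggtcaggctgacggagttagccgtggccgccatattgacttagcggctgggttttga
Uqcrc2: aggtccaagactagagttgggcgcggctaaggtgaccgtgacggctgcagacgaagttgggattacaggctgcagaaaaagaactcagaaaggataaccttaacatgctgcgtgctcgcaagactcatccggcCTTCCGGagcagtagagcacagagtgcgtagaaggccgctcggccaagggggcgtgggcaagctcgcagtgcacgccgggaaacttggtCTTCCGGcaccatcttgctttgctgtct
Ndufv2: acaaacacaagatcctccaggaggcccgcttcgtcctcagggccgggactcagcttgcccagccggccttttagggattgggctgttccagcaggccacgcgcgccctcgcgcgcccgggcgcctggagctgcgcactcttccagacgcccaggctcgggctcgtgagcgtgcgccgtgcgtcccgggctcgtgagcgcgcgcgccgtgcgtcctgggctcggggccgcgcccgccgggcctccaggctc
Ndufa6: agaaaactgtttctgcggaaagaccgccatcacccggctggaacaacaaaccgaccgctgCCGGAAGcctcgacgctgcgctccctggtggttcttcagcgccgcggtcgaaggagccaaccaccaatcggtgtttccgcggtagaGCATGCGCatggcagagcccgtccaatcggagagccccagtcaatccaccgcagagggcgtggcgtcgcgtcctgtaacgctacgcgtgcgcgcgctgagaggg

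The ETS core began 199 bases before the start of Ndufs1 and 117 and 28 bases before that of Uqcrc2, while the Ndufv2 stretch held none of the motifs. In Ndufa6 the ETS core lay 190 and the NRF-1 motif 104 bases before the start, and its YY1 motif lay past the start, outside the printed bases. Windows from 250 bases before to 50 after the start were found for 65 of the 75 nuclear symbols. On either strand, 18 of the 65 (27.7%) held the ETS core, against 16.2% of the windows of all genes tested and 9.63% of all windows. The NRF-1 motif stood in 8 (12.3%, against 4.83% and 2.77%), and the YY1 core AAGATGGC in 15 (23.1%, against 5.28% and 3.62%). The letters TATAAA stood in 5 (7.69%, against 7.71% and 15.3%). At least 1 of the first 3 motifs was found in 30 windows, and a match of letters does not show binding.

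Mitochondrial members had no common direction in Del/+. Their median log2 fold change against wt was -0.033, with 8 of 13 below 0. The median was above 0 without wt replicate 6 (0.018) or Del/+ replicate 4 (0.0063) and with the replicate number as a block (0.075), and was lowest, when 1 library was left out, without wt replicate 2 (-0.082). At an unadjusted p under 0.05 there were 3 lower members (23.1%, against 9.68% of all genes) and 0 higher. Mt-co1, the catalytic core of complex IV, spanned 14107 to 16555 CPM in wt with a median of 15740, and stood at 14008, 13068, 13401 and 13919 CPM in Del/+. All 4 Del/+ libraries lay below every wt library, replicate 4 included. The log2 fold change was -0.19 (SE 0.059, edgeR adjusted p = 0.109, DESeq2 adjusted p = 0.0414), and it was the 1 mitochondrial member whose groups did not overlap, where 2.7% of all genes lay wholly below wt. In Dup/+ and Del/Dup, Mt-co1 spanned 12825 to 15959 CPM and 13553 to 15583 CPM, so both groups reached below the wt range. Its log2 fold changes against wt there were -0.093 and -0.088. Of the mitochondrial reads, Mt-co1 averaged 49.03% ± 1.12 in wt (SD), 47.28% ± 1.96 in Del/+, 47.35% ± 0.689 in Dup/+ and 47.48% ± 0.873 in Del/Dup.

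Mt-cyb, the mitochondrial subunit of complex III, stood at 1866, 1890, 1735 and 1624 CPM in Del/+ against 1764 to 2334 CPM in wt (log2 fold change -0.19, edgeR adjusted p = 0.214). Mt-co2, which receives electrons from cytochrome c, stood at 3615 to 4125 CPM against 3840 to 4862 CPM (log2 fold change -0.14, edgeR adjusted p = 0.27). The groups overlapped for both genes. With the term for high multi-mapped share, the mitochondrial median in Del/+ was -0.16, and the log2 fold changes were -0.16 for Mt-co1, -0.32 for Mt-cyb and -0.27 for Mt-co2. No adjusted p of these was under 0.304 in that fit.

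In Dup/+ against wt, nuclear members again lay above 0 for the most part, at 61 of 77 against 49.2% of all genes, with a median log2 fold change of 0.041. The median was 0.021 with wt replicate 5, of conflicting labels, counted as Dup/+, and 0.026 without Dup/+ replicate 3. Only 3 of them were higher at an unadjusted p under 0.05 (3.9%, against 4.46% of all genes), and 0 were lower (4.48% of all genes). These were Ndufb10 and Ndufa5, accessory subunits of complex I, and Ndufb5. Ndufb10 stood at 72.7, 72.0, 75.1, 69.7 and 68.1 CPM in Dup/+ against 60.5 to 68.4 CPM in wt with a median of 64.3. The groups overlapped at 1 Dup/+ library, and the log2 fold change was 0.15 (SE 0.050, edgeR adjusted p = 0.332). Ndufa5 had a log2 fold change of 0.15 (SE 0.053, edgeR adjusted p = 0.391), with 56.5 to 65.2 CPM in Dup/+ and 51.3 to 57.8 in wt.

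Mitochondrial members in Dup/+ had a median of 0.0023 (0.089 with wt replicate 5 counted as Dup/+, and -0.036 to 0.067 leaving out 1 library, the ends being without Dup/+ replicate 5 and without wt replicate 5), and 0 of 13 passed an unadjusted p of 0.05. The lowest and highest log2 fold changes were -0.093 for Mt-co1 and 0.19 for Mt-atp8, an ATP synthase subunit. They rested in part on single libraries: the value of Mt-atp8 was 0.086 without Dup/+ replicate 5, at 396 CPM, and that of Mt-co1 -0.051 without Dup/+ replicate 3. All wt and Dup/+ libraries were of low multi-mapped share, and in a fit of these libraries alone the medians were 0.041 and 0.0024. The 7 blood markers in the files summed to 182 to 247 CPM in Dup/+ and 119 to 163 CPM in wt, without overlap, and their part in these values was not tested.

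In Del/Dup against wt, where the copy number of the interval is the same, the nuclear members were centred on 0. There were 40 of 77 above 0, against 50.3% of all genes, with a median of 0.0033. Leaving out 1 library at a time it ran from -0.019 (without Del/Dup replicate 2) to 0.043 (without Del/Dup replicate 3). With the term for high multi-mapped share, which is set by the Del/+ libraries alone, it was -0.10, and the mitochondrial median went from 0.016 to -0.12. Leaving out 1 library, the mitochondrial median ran from -0.0081 (without wt replicate 4) to 0.068 (without wt replicate 5). The 12 neuron markers summed to 12210 to 13250 CPM in Del/Dup against 13110 to 14560 CPM in wt, and their part in these values was not tested. At an unadjusted p under 0.05, 2 were higher, Cox7b, a small subunit of complex IV (log2 fold change 0.16, edgeR adjusted p = 0.262), and Ndufc2 of complex I (0.11, edgeR adjusted p = 0.292), and 0 were lower, against 8.15% of all genes higher and 8.06% lower. Without Del/Dup replicate 2 the log2 fold changes were 0.092 for Cox7b and 0.067 for Ndufc2, and without Del/Dup replicate 3 that of Ndufc2 was 0.16 and that of Cox7b 0.22. Del/Dup libraries spread widely: in order, the nuclear medians given above are those of replicates 2 to 5, and 8 of the 77 nuclear members lay above the wt mean in replicate 3 against 56 in replicate 2.

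Among the mitochondrial members, the complex I subunits Mt-nd6, Mt-nd2 and Mt-nd5 stood higher in Del/Dup at an unadjusted p under 0.05, which is 23.1% of the 13 against 8.15% of all genes. Mt-nd6, the 1 protein gene on the light strand of the mitochondrial DNA, stood at 246, 236, 252 and 193 CPM in Del/Dup replicates 2 to 5. It spanned 150.1 to 227 CPM in wt with a median of 167, so that 3 of 4 Del/Dup libraries lay above every wt library. The log2 fold change was 0.39 (SE 0.12, edgeR adjusted p = 0.174). Mt-nd2 (0.23, edgeR adjusted p = 0.257) and Mt-nd5 (0.22, edgeR adjusted p = 0.28) overlapped with wt.

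**Figure D4:**
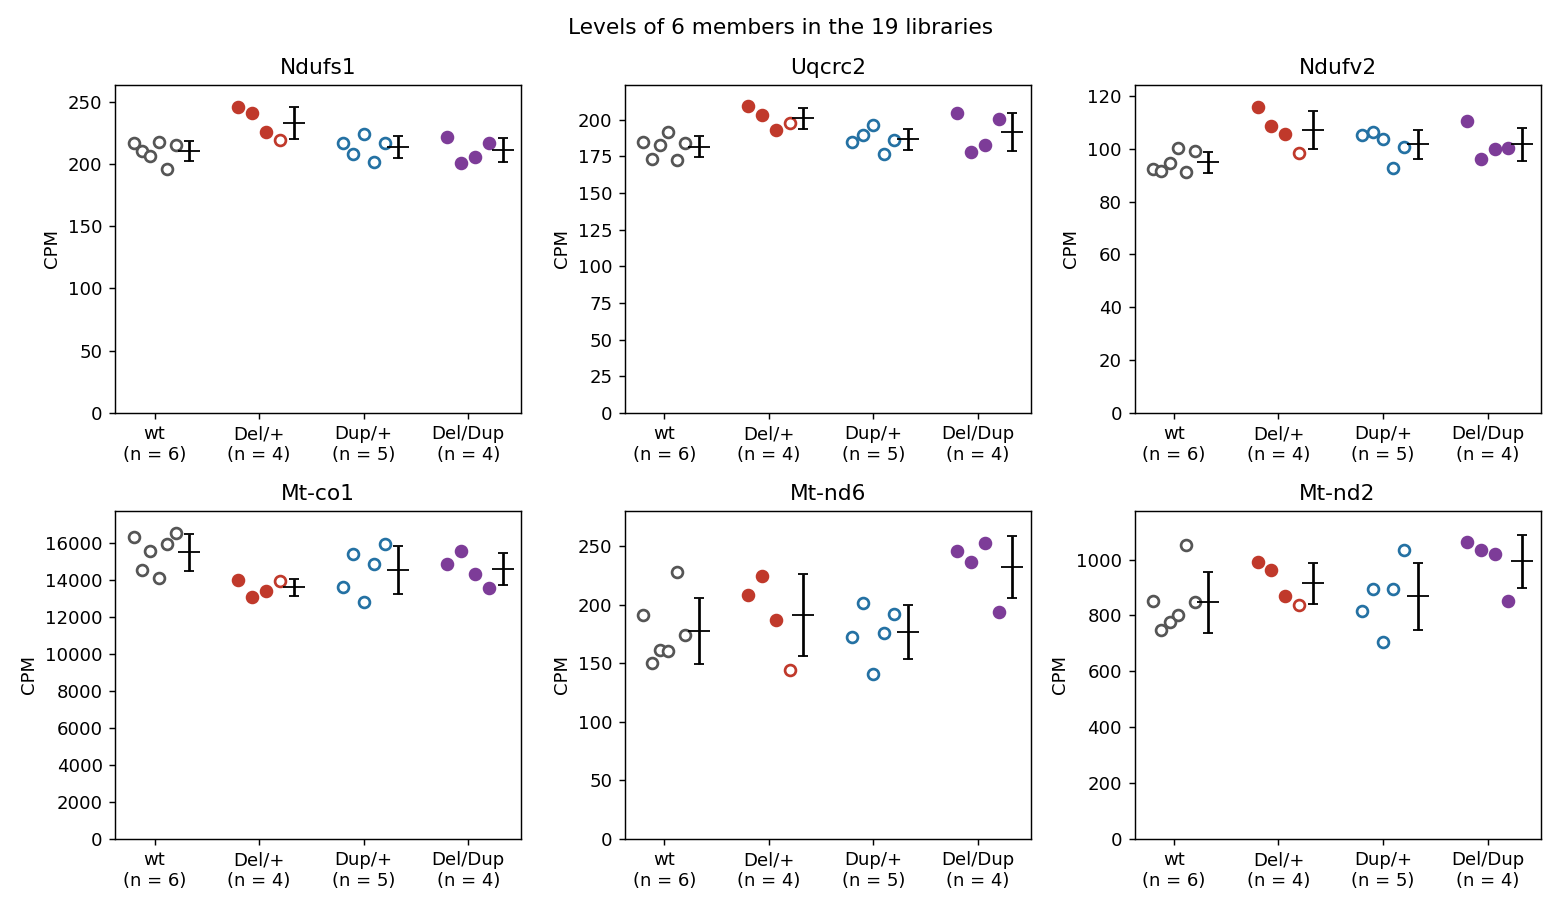
CPM of 6 members in the 19 libraries, by genotype; each circle is 1 library, filled where the multi-mapped share was above 55%, and the bar is the mean with its SD. Ndufs1 and Uqcrc2 lie higher and Mt-co1 lower in every Del/+ library than in any wt library, and for Mt-nd6 the low-share Del/+ library, at 144 CPM, lies below all wt libraries.

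Within the mitochondrial reads, the share of Mt-nd6 averaged 0.559% ± 0.0596 in the 6 wt libraries (SD), 0.574% ± 0.0378 in the 5 Dup/+ libraries, 0.662% ± 0.109 in the 4 Del/+ libraries and 0.754% ± 0.0609 in the 4 Del/Dup libraries. Every Del/Dup library (0.682% to 0.827%) lay above every wt library (0.516% to 0.671%). The 7 Mt-nd genes together averaged 11.6% ± 0.661 in wt, 12.2% ± 0.372 in Dup/+, 12.8% ± 0.753 in Del/+ and 13.2% ± 0.450 in Del/Dup libraries (SD). Within Del/+, Mt-nd6 was lowest in the 1 library of low multi-mapped share. It stood at 208, 225 and 187 CPM in the 3 high-share libraries and at 144 CPM in replicate 4. Of the low-share wt libraries, replicate 5 stood at 227 CPM. With the term for high share, which is set by the Del/+ libraries alone, the log2 fold change of Mt-nd6 in Del/Dup was -0.13. Whether counting used the strand of the reads is not given in the sources used here, so reads of Mt-nd6 and of the opposite strand cannot be told apart.

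The remaining mitochondrial members were Mt-nd1, Mt-nd3, Mt-nd4 and Mt-nd4l of complex I, Mt-co3 of complex IV and Mt-atp6 of complex V. None of them, nor Mt-atp8, had an unadjusted p under 0.05 in any comparison, and their log2 fold changes against wt ran from -0.13 for Mt-nd3 to 0.27 for Mt-nd4, both in Del/Dup. Leaving out 1 library, that of Mt-nd3 ran from -0.21 to -0.069 and that of Mt-nd4 from 0.21 to 0.40. Mt-nd4 held few reads, at 2.4 to 4.7 CPM, and Mt-nd4l stood at 24.4 to 38.7 CPM. Reads that fit more than 1 place were not assigned to genes, and the mitochondrial gene pairs Mt-nd4l with Mt-nd4 and Mt-atp8 with Mt-atp6 overlap in the genome, so these counts are uncertain.

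Del/+ was also set against Dup/+, the widest step in copy number. Both comparisons with wt share the wt libraries, so this contrast gives the direct difference between the carriers. Of the nuclear members, 53 of 77 lay above 0 (50.3% of all genes) with a median of 0.039 (0.016 without Del/+ replicate 1), and of the mitochondrial members 3 of 13 with a median of -0.079 (-0.022 without Dup/+ replicate 5 and -0.13 without Dup/+ replicate 3). At an unadjusted p under 0.05, Ndufs1 (log2 fold change 0.12, edgeR adjusted p = 0.234) and Uqcrc2 (0.11, edgeR adjusted p = 0.323) were higher in Del/+ and Cox6b2 lower, while 6.54% of all genes were higher and 6.93% lower. Cox6b2 met the rule only through its wt and Dup/+ levels, given below, so its lower value was favoured by the filter. With the term for high multi-mapped share the nuclear median was -0.058 and the mitochondrial one -0.21.

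Cox6b2, the testis isoform of a complex IV subunit, lay just inside the rule at a mean of 1.0 CPM. Its group means were 1.09 CPM in wt and 1.19 in Dup/+, but 0.786 in Del/+ and 0.864 in Del/Dup. Cox6b2 thus met the rule only through the groups where it was higher, and such a filter favours a lower value in the others. It stood at 0.623, 1.27, 0.737 and 0.511 CPM in Del/+ against 0.956 to 1.53 in Dup/+ and 0.891 to 1.47 in wt. Only Del/+ replicate 2 reached the range of these groups. In Del/Dup it stood at 0.794, 0.785, 0.974 and 0.901 CPM, where 2 libraries lay below every wt library (log2 fold change against wt -0.30, edgeR adjusted p = 0.505). The log2 fold change was -0.59 (SE 0.24, edgeR adjusted p = 0.247) against Dup/+ and -0.45 (SE 0.23, edgeR adjusted p = 0.257) against wt, the latter -0.73 without Del/+ replicate 2 and -0.30 without Del/+ replicate 4. Just outside the rule lay Ndufs6, a zinc-binding subunit of complex I, at a mean of 0.613 CPM.

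Of the other isoform pairs, no member was called in any comparison. Cox4i1, the common form of the complex IV regulatory subunit, spanned 268 to 322 CPM and its hypoxia-linked partner Cox4i2 1.1 to 2.09 CPM over the 19 libraries. Against wt, the log2 fold changes of Cox4i1 were 0.044 in Del/+, -0.017 in Dup/+ and -0.0094 in Del/Dup. Leaving out 1 library, they ran from 0.017 to 0.078, from -0.041 to -0.0033 and from -0.046 to 0.032. Ndufa4, a complex IV subunit despite its name, had log2 fold changes of 0.093 in Del/+ (95% interval -0.0030 to 0.19), 0.043 in Dup/+ and 0.0023 in Del/Dup, and those of Ndufa4l2 were 0.011, -0.070 (0.0037 without wt replicate 5) and 0.16 (0.094 without wt replicate 1). Cox6a1, Cox7a2l and Cox8a stood within -0.12 to 0.051, while the muscle forms Cox6a2 (mean 0.369 CPM), Cox7a1 (0.0455 CPM) and Cox8b (0.233 CPM) were below the rule. The 2 genes that carry the symbol Cox6b1 may share reads, and differed in Del/Dup, at -0.12 and 0.049. Leaving out 1 library, the first ran from -0.18 to -0.041 and the second from 0.0029 to 0.15. For both, the low end was without Del/Dup replicate 2 and the high end without Del/Dup replicate 3.

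Of the nuclear members with the most reads in their complexes, Atp5f1b, the catalytic beta subunit of ATP synthase, spanned 1008 to 1157 CPM. Its log2 fold changes were 0.066 in Del/+ (95% interval -0.012 to 0.14), 0.050 in Dup/+ (-0.023 to 0.12) and 0.0033 in Del/Dup (-0.075 to 0.081). Among nuclear members, Cox4i1, Sdha and Uqcrc2 were those of complexes IV, II and III, and Ndufs1 that of complex I.

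Members varied together between libraries of the same genotype. Over the 19 libraries, deviations from the group means had a median Pearson correlation of 0.458 over the 2926 pairs of nuclear members and of 0.725 over the 78 pairs of mitochondrial members. It was -0.0746 over the 1001 pairs of a nuclear with a mitochondrial member and -0.00064 over pairs of all genes tested. Nuclear members thus varied together, and mitochondrial members together, with little relation between them. The pairs share libraries, depth and scaling, and these correlations are a description.

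Genes that build or regulate the pathway were looked at in lists of assembly factors, electron carriers, mitochondrial DNA expression factors and biogenesis regulators, of which 93 were tested. edgeR called 1 of them, Esrrg, and only in Del/+ against Dup/+ (1.08% of the 93, against 0.784% of all genes). Esrrg, an orphan nuclear receptor that activates genes of mitochondrial metabolism, stood at 19.1, 27.1, 23.3 and 20.5 CPM in Del/+ and at 15.9, 15.1, 17.0, 19.1 and 17.2 CPM in Dup/+. The highest Dup/+ library lay just under the lowest Del/+ library, and wt stood at 17.3 to 19.9 CPM. In Del/Dup, with the copy number of wt, Esrrg stood at 22.4, 17.6, 21.3 and 22.3 CPM, so that 3 of 4 libraries lay above every wt library (log2 fold change 0.18, edgeR adjusted p = 0.311). Esrrg was 0.42 higher in Del/+ than in Dup/+ on the log2 scale (SE 0.092, edgeR adjusted p = 0.0349), and 0.28 higher than in wt (edgeR adjusted p = 0.103). Del/+ replicates 1 to 3 and all Del/Dup libraries were of high multi-mapped share, and all wt and Dup/+ libraries of low share. The part of that share in the Esrrg values was not tested.

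DESeq2 called 4 of the 93 in Del/+ against wt (5.80% of the 69 with an adjusted p, against 6.93% of all such genes), each with a higher level in Del/+. These were Esrrg, the complex III assembly factor Uqcc1 (log2 fold change 0.14 in edgeR), the copper chaperone of complex IV Cox17 (0.25) and the outer membrane channel Vdac2 (0.13). Of the 93, 14 had an unadjusted edgeR p under 0.05 in Del/+ against wt (15.1%, against 18.4% of all genes), 6 in Dup/+ (6.45%, against 8.94%), 7 in Del/Dup (7.53%, against 16.2%) and 14 in Del/+ against Dup/+ (15.1%, against 13.5%). Uqcrc2 is the member nearest to the interval in the gene order of GRCr8, with 114 genes between it and *Sult1a1*. By that order and the symbols, no member lies inside the interval.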

How the data were processed

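Raw read counts per gene were deposited by the authors, 1 library per sample, with no normalization. Per the labels, a stranded kit for total RNA was used (they describe rRNA removal but also name polyA RNA, which was not settled here). The authors aligned single-end reads of 50 bases to rn6 by HISAT2 and counted by HTSeq over Ensembl genes. The submitters' processing notes also name bcl2fastq 2.17.1.14, R 3.6 and DESeq2. The 5 summary lines of each file (0.142% to 0.334% ambiguous and 6.94% to 16.1% without a gene, beside multi-mapped reads) stayed out of library sizes and tests.

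Groups were taken from the description field. Counts were tested in R 4.3.3 by edgeR 4.0.16 (quasi-likelihood F test, trimmed mean of M values, TMM, scaling, filterByExpr, 15440 genes). A single model held the 19 libraries and a mean for each group, with Benjamini-Hochberg adjustment over all genes. Log2 fold changes used a prior count of 2. SE and 95% intervals came from the same fit. CPM are on TMM-scaled library sizes, and library medians used log2 of CPM plus 0.5. For members with many reads the spread between libraries (common biological coefficient of variation 0.101), rather than counting error, set the precision. For those with few reads, such as Cox6b2 at 15 to 40 per library, counting error added to it. The intervals cover these sources only. Pairs of libraries of 1 group differed by a chi-square per degree of freedom of 3.51 to 59.2, so none was a duplicate. The script was tested on simulated data.

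The members and lists were chosen with earlier results of these data known. Named singly are the 13 mitochondrial members and, of the 5 nuclear members with the smallest p per comparison, those with an unadjusted p under 0.05. The nuclear member with the most reads per complex, isoform pairs and called pathway genes are also named. Alternatives were DESeq2 1.42.0, other scalings and filters, wt replicate 5 as Dup/+, a term for a multi-mapped share above 55%, a Ttr covariate, a replicate block and leaving out each library. FCROS, which the study used, was not run. An 8-letter YY1 core replaced a longer form after both had been counted. Gene coordinates of rn6 were not used here.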

Additional observations from a re-analysis of the deposited data

Results flagged for a closer look

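In groups of 4 to 6 libraries, single libraries were compared with the rest of their group by Dixon's criterion. This covered 38 genes selected for naming, not all of them named above, and 3 summed measures. Of 164 groups, 6 had a library that stood apart, where chance gives about 1 in 20. In Dup/+ replicate 5, Mt-atp8 stood at 396 CPM against 273 to 301 CPM in the rest of the group, and Mt-nd3 at 354 CPM against 249 to 273 CPM. In wt replicate 5, the library with conflicting labels, Mt-nd2 stood at 1054 CPM against 749 to 853 CPM. Ndufa4 stood at 138 CPM in Dup/+ replicate 4 against 151 to 155 CPM. Ndufb10 stood at 73.4 CPM in Del/Dup replicate 2 against 64.5 to 65.5 CPM. The less abundant of the Cox6b1 genes stood at 15.2 CPM in Del/Dup replicate 3 against 20.3 to 21.3 CPM. The cause of these values was not tested.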

How the results depend on the processing

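The count of called members was 0 under every alternative except DESeq2 in Del/+ against wt (4) and, leaving out 1 library at a time, Del/+ against wt (0 to 1). With the term for high multi-mapped share, the nuclear median was -0.013 in Del/+ against wt, -0.10 in Del/Dup against wt and -0.058 in Del/+ against Dup/+. In the libraries of low share alone, an alternative added after seeing the data in which Del/+ is 1 library assumed to vary like the others, it was -0.013 in Del/+ against wt and -0.057 in Del/+ against Dup/+. The 18 nuclear members higher in Del/+ at an unadjusted p under 0.05 were 0 under both. They were 11 with wt replicate 5 as Dup/+, and 9 to 28 leaving out 1 library (11 without wt replicate 2, 9 without Del/+ replicate 1, 11 without Del/+ replicate 2, 28 without Del/+ replicate 4). As a percent of all counted lines, multi-mapped ones included, the mean mitochondrial and nuclear shares were 1.28 and 0.310 in wt, 0.754 and 0.209 in Del/+, 1.18 and 0.301 in Dup/+, 0.775 and 0.195 in Del/Dup. DESeq2 called 4 other pathway genes in Del/+ against wt (5.80% of those with an adjusted p, against 6.93% of all such genes). It called 1 in Del/+ against Dup/+ (1.08%, against 1.73%) and 3 among the 4 groups (3.23%, against 4.57%). In Del/Dup against wt, the log2 fold changes of Ndufv2 (-0.061), Mt-nd6 (-0.13) and Mt-nd5 (-0.069) turned negative with the term for high share. Of 283 other values for 26 single results, 276 kept their direction and side of the threshold. Leave-one-out fits entered this tally by their lowest and highest values only. As no member was called in the main fit, keeping the side was likely in advance, and the tally does not describe changes in size. Replicate numbers did not pair the libraries (median correlation of deviations 0.0215 over 24 same-numbered pairs, and 0 of 18 libraries closest to their own number). With the number as a replicate block, the called members were 0 in each comparison, the nuclear median in Del/+ was 0.070, and the mitochondrial one turned from -0.033 to 0.075. The cause of these shifts was not tested. Depth was lowest for Cox6b2, at 15 to 40 reads per library.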
